A study of Mus musculus with 20 samples.

Results

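Neural stem cells were set against mouse embryonic fibroblasts, a neuroectodermal against a mesenchymal cell type, across 18193 genes. The comparison took the 3 arrays titled NSC and the 3 titled MEF, 6 of the 20 arrays of a study on the induction of pluripotency in germline stem cells, and each gene was represented by its probe set with the highest mean over the 20 arrays. The neural stem cells (NSC) had been derived in culture from an embryonic stem cell line that carries green fluorescent protein under Olig2, by a published protocol with modifications. The fibroblasts (MEF) came from C3H mouse embryos at E12.5 and were grown under standard conditions. NSC and MEF therefore differ at once in origin (a cell line against an embryo), in the GFP reporter and in culture conditions, and the effect of cell type cannot be told apart from these. The labels name no mouse strain for the line behind NSC. The other 14 arrays give the level of each gene elsewhere. They cover germline stem cells from testes of Oct4-GFP mice (GSC, 3 arrays), the pluripotent cells that arose from them in culture (gPS, 5 arrays), embryonic stem cells (ESC, 3 arrays) and ESC-like cells from newborn testis (ESC_like, 3 arrays). All 4 of these groups were kept on embryonic fibroblast feeder cells. The labels do not name separate cultures behind the 3 arrays of a group, so the p-values here rest on the spread among these arrays, which may be technical.

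Neural stem cells are dividing cells of the neural lineage that can form neurons, astrocytes and oligodendrocytes. In culture they are usually kept dividing by the growth factors EGF and FGF2, and factors of the SOX, POU and NFI families hold their identity. Embryonic fibroblasts build the fibrous matrix of connective tissue, spread on stiff surfaces with thick actin bundles and answer to TGF-beta, PDGF and mechanical tension. SRF and the TEAD factors with their partner YAP are the regulators best known for carrying that tension to the genome.

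The 6 arrays had medians of 4.95 to 4.99 on the log2 scale, close to the median of 4.98 over all values of the series. Across genes, arrays correlated at r of 0.994 to 0.996 within NSC and at 0.997 within MEF, and at 0.909 to 0.914 between the groups. The median standard deviation of a gene over 3 arrays was 0.12 in NSC and 0.09 in MEF. The 3' minus 5' difference of the Actb control probe sets, a sign of RNA integrity, was 0.27 to 0.33 in NSC and 0.12 to 0.17 in MEF. That of the Gapdh control probe sets overlapped, at -0.27 to -0.23 in NSC and -0.26 to -0.24 in MEF. The part of RNA integrity in the results was not tested. No detection calls were used, and a level below about 5 cannot be told from background, so a fold change from such a level is likely to understate the difference. In these bulk samples fewer cells of a type and less RNA per cell cannot be told apart.

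A gene was called at a limma adjusted p under 0.05 (Benjamini-Hochberg, over all genes) and a difference of at least 2-fold, which is 1 log2 unit. By this rule 3088 genes (17.0%) differed, 1479 of them (8.13%) higher in NSC and 1609 (8.84%) higher in MEF. Every list count below is to be read beside these shares of all genes. With each array centred on its median the larger side turned, to 1707 higher in NSC and 1458 in MEF. At 4-fold or more 1200 genes (6.6%) were called, 452 (2.48%) and 748 (4.11%), and 40 genes stood at least 5 log2 units higher in NSC against 113 in MEF. The median absolute difference over all genes was 0.26, and the median signed difference was 0.01. The NSC and MEF values did not overlap for 10437 genes (57.4%), so a lack of overlap by itself is common here. Differences are given as NSC minus MEF on the log2 scale with limma's standard error (SE), which pools the spread of all 6 groups, and a negative value means a higher level in MEF.

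**Figure D1:**
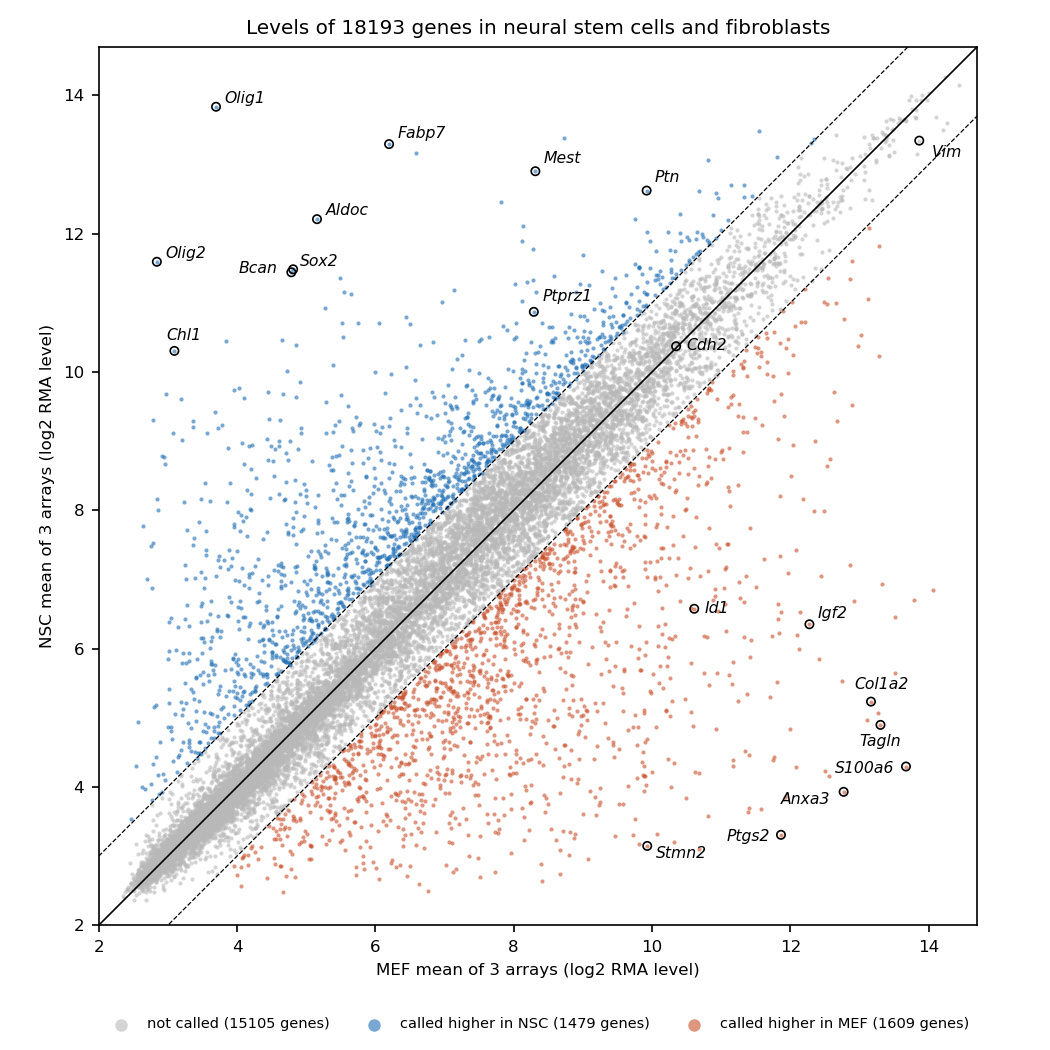
Mean log2 RMA level of 18193 genes in MEF (x axis, 3 arrays) and NSC (y axis, 3 arrays), with 1 point per gene, a solid line of equality and dashed lines at 1 log2 unit. The 1479 genes called higher in NSC (blue) and the 1609 called higher in MEF (orange) fan out from the diagonal, and Olig1, Olig2 and Fabp7 lie at the far edge on the NSC side and S100a6, Anxa3 and Col1a2 on the MEF side.

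The labels were checked first against genes that define each cell type. Olig2, a transcription factor of ventral neural progenitors and the gene for which the reporter of the parent line is named, read 11.44, 11.69 and 11.64 on the NSC arrays and 2.74, 2.98 and 2.80 on the MEF arrays. It was 432-fold higher in NSC, a difference of 8.75 ± 0.48 (SE) with a limma adjusted p of 2.62e-12. Sox2, which holds neural progenitors undifferentiated, read 11.48, 11.49 and 11.35 on the NSC arrays and 4.76, 4.62 and 4.97 on the MEF arrays. The arrays of each group lie close together and the groups do not overlap for either gene. Col1a1, a chain of type I collagen and the classic product of a fibroblast, read 4.76, 5.04 and 4.73 on the NSC arrays and 12.05, 11.92 and 11.998 on the MEF arrays, which made it 142-fold higher in MEF (-7.15 ± 0.29, SE, adjusted p = 2.37e-14). Of the 18 fibroblast markers measured, 16 were called higher in MEF and none in NSC, with a median difference of -3.49 against 0.01 over all genes. The matrix proteoglycan gene Dcn (-4.11 ± 0.31, SE), the periostin gene Postn (-4.37 ± 0.32, SE) and the surface glycoprotein gene Thy1 (-1.69 ± 0.25, SE) were among them.

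Some textbook markers of neural stem cells were not higher in the cells labelled NSC. Hes5, a Notch target of radial glia, averaged 5.13 ± 0.15 (SD, n = 3) in NSC and 4.99 ± 0.06 (SD, n = 3) in MEF, a difference of 0.14 ± 0.13 (SE) with a 95% interval of -0.14 to 0.42. Nr2e1, the orphan receptor of adult neural stem cells, stood at 3.46 and 3.32, and Msi1, an RNA-binding protein used to mark neural progenitors, at 5.42 and 5.43. All 3 lie near background in both groups. Nes, the intermediate filament gene most often used to define neural stem cells, read 9.49, 9.59 and 9.85 on the NSC arrays and 8.51, 8.20 and 8.32 on the MEF arrays. It was called higher in NSC by 1.30 ± 0.16 (SE), with no overlap, but MEF carried a clear signal too, and with the mean of its probe sets the difference was 0.73 and the call was lost.

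**Figure D2:**
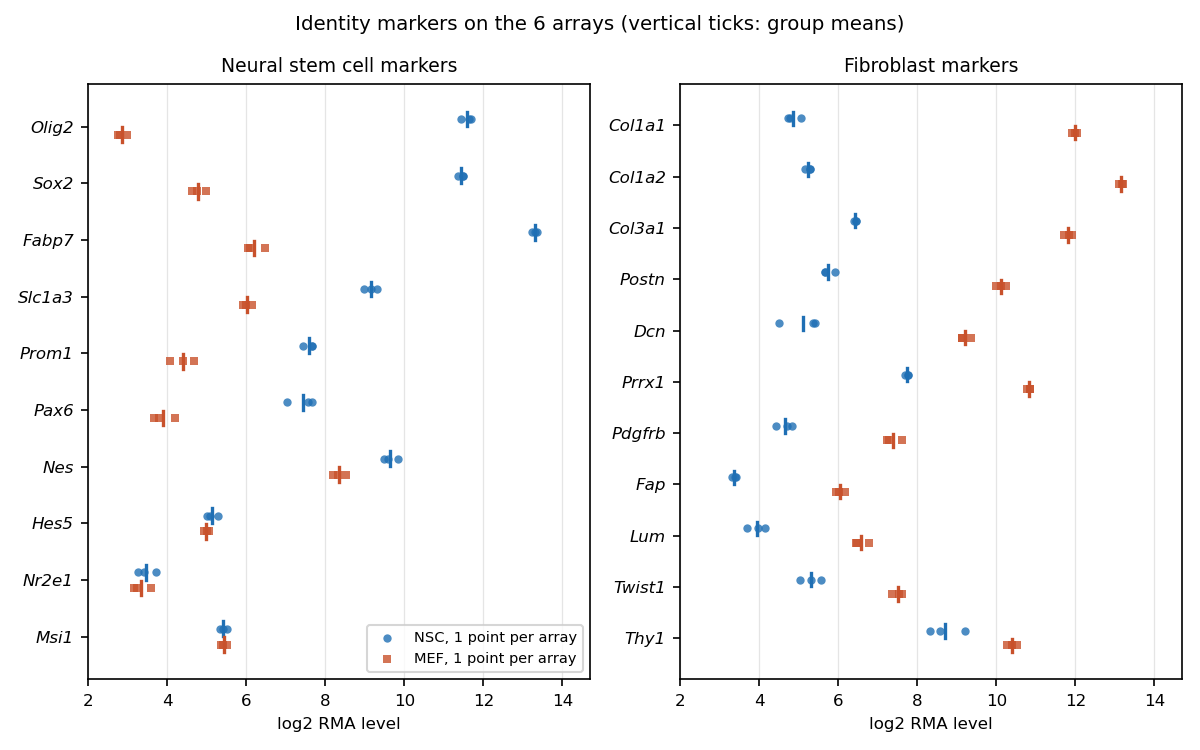
Log2 RMA level (x axis) of 10 neural stem cell markers and 11 fibroblast markers on the 3 NSC arrays (blue circles) and 3 MEF arrays (orange squares), with group means as ticks. Olig2, Sox2 and Fabp7 separate the groups widely and Hes5, Nr2e1 and Msi1 do not, while all 11 fibroblast markers lie to the MEF side.

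Transcription factors of the neural progenitor were called higher in NSC far more often than in MEF. Of 39 measured, 20 (51.3%) were called higher in NSC, 2 (5.13%) higher in MEF and 17 were not called, with a median difference of 1.09. Of the 39, 19 were below 6 in both groups. Olig1, the partner of Olig2 in the oligodendrocyte lineage, was near background in MEF. It read 13.86, 13.83 and 13.81 on the NSC arrays and 3.72, 3.53 and 3.84 on the MEF arrays, a difference of 10.14 ± 0.96 (SE, adjusted p = 1.77e-08). The 3 NSC values nearly coincide, and the SE is larger than the spread of these 6 arrays because it pools all groups, gPS included, where the Olig1 mean was 5.96. The POU factors Pou3f1, Pou3f3 and Pou3f4, which act in neural progenitors and glial precursors, differed by 6.42 ± 0.24 (SE), 5.01 ± 0.16 (SE) and 2.92 ± 0.12 (SE).

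The nuclear factor I genes, which switch neural progenitors toward glia, split. Nfia read 10.49, 10.69 and 10.95 on the NSC arrays and 6.10, 6.09 and 5.97 on the MEF arrays, a 25.2-fold higher level in NSC with no overlap. Nfib was also called (2.48 ± 0.20, SE), whereas Nfix differed by 0.64 ± 0.18 (SE), short of 2-fold. Pax6, which patterns the dorsal forebrain and the eye, read 7.67, 7.03 and 7.57 on the NSC arrays and 3.80, 3.65 and 4.19 on the MEF arrays, well apart from MEF although NSC replicate 2 was lower than the other NSC arrays. Sox3 (4.25 ± 0.31, SE), the LIM factor gene Lhx2 (2.68 ± 0.14, SE) and the midbrain factor gene En2 (2.74 ± 0.17, SE) were called higher in NSC. Sox9, a glial and cartilage factor, was called by 1.30 ± 0.18 (SE) but fell short of 2-fold (0.82) with the mean of its probe sets.

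Both exceptions toward MEF belong to forebrain patterning. Dlx2, a homeobox gene of the ventral forebrain that also acts in branchial mesenchyme, read 3.19, 3.50 and 3.34 on the NSC arrays and 6.65, 6.68 and 6.65 on the MEF arrays, higher on every MEF array (-3.32 ± 0.16, SE). Emx2, a cortical homeobox gene, differed by -2.07 ± 0.11 (SE). Across the Sox family, which includes several of these genes, 9 of 19 were called higher in NSC, none in MEF and 10 were not called (median 0.84), with Sox11, of immature neural cells, at 3.46 ± 0.22 (SE). Hes1, a repressor downstream of Notch, had 8.01 in NSC and 8.72 in MEF and was not called.

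Genes of radial glia, the scaffold-forming progenitors of the embryonic brain, showed the highest share toward NSC of the neural lists. Of 26 measured, 20 (76.9%) were called higher in NSC, none in MEF and 6 were not called, with a median difference of 2.37. Fabp7, the brain lipid-binding protein, read 13.30, 13.36 and 13.23 on the NSC arrays and 6.46, 6.10 and 6.03 on the MEF arrays. That is a 137-fold difference (7.10 ± 0.22, SE, adjusted p = 3.65e-16). Bcan, which encodes the brain proteoglycan brevican, read 11.26, 11.40 and 11.80 on the NSC arrays and 4.67, 4.80 and 4.96 on the MEF arrays, with every NSC array more than 6 units above every MEF array. The tetraspan membrane protein genes Gpm6b and Gpm6a differed by 6.58 ± 0.23 (SE) and 5.61 ± 0.11 (SE), the neurocan gene Ncan by 4.94 ± 0.25 (SE), and Lrrn1, a leucine-rich repeat membrane protein, by 5.44 ± 0.14 (SE).

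Slc1a3, the glutamate transporter of radial glia, averaged 9.14 in NSC and 6.01 in MEF (3.14 ± 0.17, SE). Prom1, the CD133 surface antigen used to sort neural stem cells, differed by 3.20 ± 0.40 (SE), and Msi2, an RNA-binding relative of Msi1, by 3.63 ± 0.16 (SE). Ptprz1, a receptor phosphatase of radial glia, read 10.64, 10.89 and 11.08 on the NSC arrays and 8.13, 8.39 and 8.35 on the MEF arrays. It was 5.97-fold higher in NSC, yet MEF too stood far above the ESC mean of 4.40. The adhesion molecule gene Ncam1 was not called (-0.45 ± 0.12, SE), with means of 9.23 in NSC and 9.68 in MEF.

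Neuronal genes were divided, and 21 of the 30 measured were below 6 in both groups. Of 30 measured, 9 (30.0%, against 8.13% of all genes) were called higher in NSC, 2 (6.67%, against 8.84%) higher in MEF and 19 were not called, with a median difference of 0.18, and the summed linear level of the list was 5271 to 5731 on the NSC arrays and 2116 to 2287 on the MEF arrays. Those higher in NSC included genes that progenitors also express, such as the growth cone protein gene Gap43 (3.11 ± 0.26, SE) and the microtubule protein genes Map2 (2.83 ± 0.23, SE) and Mapt (2.96 ± 0.30, SE). Neurod1, a neurogenic basic helix-loop-helix factor, read 8.12, 8.12 and 7.67 on the NSC arrays and 4.23, 3.82 and 3.99 on the MEF arrays, separate in all arrays. Dcx (0.06 ± 0.15, SE) and Rbfox3 (0.08 ± 0.16, SE), markers of young and mature neurons, were not called.

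Both neuronal markers that went the other way were clearly higher in the fibroblasts. Stmn2, a microtubule-destabilising protein used as a neuronal marker, read 3.14, 2.86 and 3.44 on the NSC arrays and 9.96, 9.98 and 9.85 on the MEF arrays. The difference of -6.78 ± 0.16 (SE, adjusted p = 5.05e-18) left NSC as the low group of the pair, and the gene was also high in ESC, at 11.15, and gPS, at 10.18. Tubb3, the neuronal beta-tubulin, read 4.51, 4.73 and 4.79 on the NSC arrays and 7.17, 7.02 and 6.85 on the MEF arrays, again with every MEF array above every NSC array.

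Astrocyte genes split as well, with 5 of 13 called higher in NSC (38.5%, against 8.13% of all genes), 1 higher in MEF (7.69%, near the 8.84%) and 7 not called (median 0.94). Aldoc, the brain isoform of the glycolytic enzyme aldolase, read 12.26, 12.24 and 12.13 on the NSC arrays and 5.14, 5.00 and 5.33 on the MEF arrays, a 133-fold difference. Sparcl1, a matrix protein secreted by astrocytes, differed by 5.53 ± 0.14 (SE) and the lipid carrier gene Apoe by 1.76 ± 0.11 (SE). The filament gene Gfap and the water channel gene Aqp4, which define mature astrocytes, were not called, with NSC means of 5.12 and 4.27 near background. The gap junction gene Gja1 was called higher in MEF, with a difference of -1.02 ± 0.14 (SE), a call that was lost with quantile normalization (-0.99) and with centring (-0.92).

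Among oligodendrocyte genes 3 of 15 were called higher in NSC (20.0%, against 8.13% of all genes), 2 higher in MEF (13.3%, against 8.84%) and 10 were not called (median 0.04). The summed linear level was 1514 to 1588 in NSC and 1554 to 1715 in MEF. Sox8 (3.62 ± 0.19, SE), a SOX factor of glia, and Ugt8a (4.10 ± 0.21, SE), which makes the myelin lipid galactosylceramide, were higher in NSC. Pdgfra, the PDGF receptor that marks oligodendrocyte precursors in the brain and mesenchyme elsewhere, read 4.69, 4.85 and 5.06 on the NSC arrays and 9.89, 9.54 and 9.77 on the MEF arrays. It was 29.2-fold higher in MEF (adjusted p = 1.96e-16). Sox10, the SOX factor that acts with Olig2 in this lineage, was not called (-0.09 ± 0.16, SE), and Mbp, the myelin basic protein gene, was called higher in MEF (-1.96 ± 0.36, SE) but differed by -0.57 with the mean of its probe sets.

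Collagens are the main structural product of fibroblasts. Of 42 collagen chains measured, 19 were called higher in MEF, 1 higher in NSC and 22 were not called, with a median difference of -0.37. Of the 42, 21 were below 6 in both groups. Col1a2, the partner chain of Col1a1, read 5.27, 5.27 and 5.17 on the NSC arrays and 13.21, 13.18 and 13.12 on the MEF arrays, a 244-fold difference (-7.93 ± 0.25, SE, adjusted p = 2.80e-16). Col3a1 differed by -5.39 ± 0.43 (SE), Col5a2 by -5.65 ± 0.27 (SE) and Col8a1, a short-chain collagen of vessel walls, by -7.32 ± 0.32 (SE). The exception was Col9a3, a chain best known from cartilage, at 6.96 in NSC and 5.32 in MEF. Col11a1, another fibrillar chain, was not called, at 7.93 and 7.62.

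Among other matrix glycoproteins 25 of 40 were called higher in MEF, 4 higher in NSC and 11 were not called, with a median difference of -2.23. Thbs1, thrombospondin 1, read 4.51, 4.03 and 3.95 on the NSC arrays and 12.47, 12.57 and 12.65 on the MEF arrays, a 338-fold difference. Fn1, the fibronectin that fibroblasts assemble into fibrils, averaged 7.99 ± 0.07 (SD, n = 3) in NSC and 12.49 ± 0.01 (SD, n = 3) in MEF. The elastic fibre genes Efemp1 (-7.58 ± 0.38, SE) and Fbln5 (-6.86 ± 0.27, SE) were also higher in MEF. In the other direction Spon1, the floor plate protein F-spondin, differed by 5.79 ± 0.20 (SE). Tnc, the tenascin of both brain and wound matrix, had 11.12 in NSC and 11.37 in MEF, and its 95% interval of -0.66 to 0.15 excludes a 2-fold difference. Vcan, the large proteoglycan versican, differed by -0.68 ± 0.15 (SE).

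Enzymes that fold, cross-link and cut collagen went with the collagens, with 20 of 29 called higher in MEF, 1 higher in NSC and 8 not called (median -2.10). Lox, the oxidase that cross-links collagen and elastin, read 4.96, 5.39 and 4.86 on the NSC arrays and 13.24, 13.29 and 13.27 on the MEF arrays, a 294-fold difference. The collagen prolyl hydroxylase gene P4ha2 differed by -5.40 ± 0.23 (SE), and the metalloprotease inhibitor gene Timp1 by -6.24 ± 0.12 (SE). The member higher in NSC was Timp4, the inhibitor found in brain and heart, which averaged 9.03 in NSC and 4.43 in MEF (4.59 ± 0.13, SE).

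The contractile apparatus was the list with the highest share toward MEF after the fibroblast markers. Of 28 genes measured, 22 were called higher in MEF, none in NSC and 6 were not called, with a median difference of -2.93. Tagln, the actin-bundling protein transgelin, read 5.08, 5.17 and 4.44 on the NSC arrays and 13.35, 13.28 and 13.28 on the MEF arrays, a 339-fold difference (-8.41 ± 0.21, SE, adjusted p = 7.61e-18). Acta2, smooth muscle actin, read 6.82, 6.59 and 7.16 on the NSC arrays and 14.02, 14.07 and 14.10 on the MEF arrays. Myl9, the regulatory light chain of non-muscle and smooth muscle myosin, read 4.54, 3.91 and 4.26 on the NSC arrays and 12.59, 12.47 and 12.44 on the MEF arrays, and Tpm2, a tropomyosin, differed by -7.87 ± 0.15 (SE). In each of these genes all 3 MEF arrays lie more than 6 units above all 3 NSC arrays. Cnn3, a calponin found in many cell types including neurons, and the non-muscle myosin gene Myh10 were not called (-0.50 ± 0.09 and -0.47 ± 0.11, SE). Without the probe sets named with a shared suffix, which can match several related transcripts, 17 contractile genes in place of 22 were called higher in MEF. Members with no other probe set drop out of that count, so lost calls and genes no longer measured are not told apart in it.

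Targets of the YAP and TEAD factors behaved in the same direction, with 15 of 22 called higher in MEF, 2 higher in NSC and 5 not called (median -1.61). Ccn2, a secreted matrix-binding protein and the standard readout of YAP, read 5.36, 4.83 and 4.71 on the NSC arrays and 13.06, 13.12 and 13.14 on the MEF arrays, a 282-fold difference. Ankrd1, an ankyrin repeat protein of muscle and fibroblasts, read 3.95, 3.50 and 3.59 on the NSC arrays and 11.57, 11.55 and 11.59 on the MEF arrays. Ccn1, a relative of Ccn2, read 6.77, 6.99 and 6.17 on the NSC arrays and 11.81, 11.79 and 11.86 on the MEF arrays, and the receptor tyrosine kinase gene Axl read 6.33, 6.09 and 6.08 on the NSC arrays and 11.34, 11.36 and 11.28 on the MEF arrays. In these 4 genes the MEF arrays nearly coincide, the NSC arrays spread more widely and no value overlaps. The exceptions were Fjx1, the mouse homologue of the fly gene four-jointed, at 8.63 in NSC and 6.52 in MEF, and the IGF-binding protein gene Igfbp3.

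Promoter windows of these lists were searched for the DNA elements of the same factors, in 300 bases of RefSeq sequence (build GRCm38.p6) from 250 before to 50 after each gene's start, for the 11791 genes with exactly 1 window. The serum response element core, called the CArG box and bound by SRF, was searched on both strands by name. It occurs in 160 of 11791 windows (1.36%), in 9 of 876 genes called higher in NSC (1.03%), in 35 of 986 called higher in MEF (3.55%) in 3 of 20 contractile genes (15.0%), in 3 of 24 neural progenitor transcription factors (Hes5, Nkx2-2 and Pou3f4) and in none of 13 YAP and TEAD targets. A match is a description of the letters in the window and not evidence of binding. The 3 contractile genes that hold it were Cnn2 (-5.61 ± 0.31, SE), a calponin, Myl9, and Vcl (-2.18 ± 0.18, SE), the vinculin of focal adhesions, and they are printed 5′ to 3′ with the CArG box in capitals because all 3 were called higher in MEF. The windows lie at chr10:79988350-79988649 on the plus strand for Cnn2, chr2:156775214-156775513 on the plus strand for Myl9 and chr14:20929148-20929447 on the plus strand for Vcl. The box begins at position -56, -161 and -227 from the start, in that order.
Cnn2: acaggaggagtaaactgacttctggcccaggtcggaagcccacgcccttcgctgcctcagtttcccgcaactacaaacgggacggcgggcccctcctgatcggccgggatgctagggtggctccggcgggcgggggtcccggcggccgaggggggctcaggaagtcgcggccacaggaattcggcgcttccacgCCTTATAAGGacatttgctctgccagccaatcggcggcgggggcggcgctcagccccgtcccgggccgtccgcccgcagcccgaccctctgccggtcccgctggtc
Myl9: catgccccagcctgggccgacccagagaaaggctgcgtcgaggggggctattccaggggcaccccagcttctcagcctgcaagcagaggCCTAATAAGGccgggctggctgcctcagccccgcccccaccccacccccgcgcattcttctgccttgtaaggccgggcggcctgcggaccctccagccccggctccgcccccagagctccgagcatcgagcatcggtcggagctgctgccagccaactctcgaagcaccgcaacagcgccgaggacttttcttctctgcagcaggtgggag
Vcl: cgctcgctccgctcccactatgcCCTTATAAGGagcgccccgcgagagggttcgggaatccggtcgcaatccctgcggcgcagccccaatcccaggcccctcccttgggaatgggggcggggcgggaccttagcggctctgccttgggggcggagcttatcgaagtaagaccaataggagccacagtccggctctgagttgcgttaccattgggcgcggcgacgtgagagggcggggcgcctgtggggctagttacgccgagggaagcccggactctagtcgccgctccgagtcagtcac

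The TEAD element GGAATG, with its reverse complement CATTCC, is short and common. It occurs in 1525 of 11791 windows (12.9%), in 109 of the 876 NSC-higher genes (12.4%) and in 146 of the 986 MEF-higher genes (14.8%). Among the YAP and TEAD targets 6 of 13 windows (46.2%) hold it, as do 9 of 20 contractile genes (45.0%). The 6 were Amotl2, Ankrd1, Axl, Ccn1, Crim1 and Ptpn14. The 3 with the largest differences are printed with the element in capitals, from chr19:36119795-36120094 on the minus strand for Ankrd1, chr7:25788684-25788983 on the minus strand for Axl and chr3:145649936-145650235 on the minus strand for Ccn1. Ankrd1 has 2 copies, beginning at -210 and -123, Axl has 1 at -233, and Ccn1 has 1 at -103 in the CATTCC orientation. None of these sites overlaps another motif searched. Short lists such as these carry few windows, and the shares were not tested.
Ankrd1: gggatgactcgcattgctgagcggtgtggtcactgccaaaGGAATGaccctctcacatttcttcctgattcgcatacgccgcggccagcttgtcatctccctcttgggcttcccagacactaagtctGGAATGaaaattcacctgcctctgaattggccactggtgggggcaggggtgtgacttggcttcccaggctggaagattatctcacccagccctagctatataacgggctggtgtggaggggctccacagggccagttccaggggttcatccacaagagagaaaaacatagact
Axl: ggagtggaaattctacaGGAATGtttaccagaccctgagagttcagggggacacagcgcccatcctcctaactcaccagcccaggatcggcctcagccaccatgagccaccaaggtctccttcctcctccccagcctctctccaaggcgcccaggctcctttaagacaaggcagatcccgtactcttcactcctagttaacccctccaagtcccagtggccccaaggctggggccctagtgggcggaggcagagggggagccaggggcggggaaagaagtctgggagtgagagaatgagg
Ccn1: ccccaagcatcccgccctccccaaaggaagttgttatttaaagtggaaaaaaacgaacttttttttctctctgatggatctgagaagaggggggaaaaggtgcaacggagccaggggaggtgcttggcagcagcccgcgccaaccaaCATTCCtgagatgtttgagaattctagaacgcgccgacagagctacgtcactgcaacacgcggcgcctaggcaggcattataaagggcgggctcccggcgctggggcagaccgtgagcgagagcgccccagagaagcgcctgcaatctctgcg

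Further elements were searched in the same windows, on both strands. The AP-1 element TGANTCA occurs in 6.15% of all windows, 3.42% of the NSC-higher and 8.11% of the MEF-higher genes. The E-box CAGCTG, a form bound by neural helix-loop-helix factors, occurs in 16.1%, 15.6% and 17.7%, and the SOX element ACAATG in 9.36%, 9.13% and 7.2%. The RBPJ element GTGGGAA of Notch targets occurs in 6.21%, 6.16% and 5.98% in the same order, and the GLI element GACCACCCA of hedgehog targets in 0.195%, 0.571% and 0.0%.

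Mesenchymal transcription factors were called higher in MEF more often than in NSC, with exceptions. Of 47 measured, 19 were called higher in MEF (40.4%, against 8.84% of all genes), 2 higher in NSC (4.26%, against 8.13%) and 26 were not called. The median difference was -0.54, and 19 of the 47 were below 6 in both groups. Snai2, a zinc finger repressor of epithelial adhesion genes, read 4.03, 4.54 and 4.99 on the NSC arrays and 11.35, 11.32 and 11.38 on the MEF arrays, a 114-fold difference. The paired-related homeobox genes Prrx2 (-5.23 ± 0.25, SE) and Prrx1 (-3.08 ± 0.31, SE) of limb and craniofacial mesenchyme, and Twist2 (-4.13 ± 0.20, SE) and Twist1 (-2.20 ± 0.19, SE), were higher in MEF. Zeb1, also counted among the factors that repress epithelial genes, went the other way and read 11.67, 11.68 and 11.71 on the NSC arrays and 8.94, 9.01 and 9.05 on the MEF arrays (adjusted p = 2.29e-11), so that 2 factors of that class pointed in opposite directions. Tbx18, a T-box factor of mesenchymal progenitors, was the other member higher in NSC, by 1.74 ± 0.17 (SE).

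Hox genes record the position of a cell along the body. Of 33 measured, 17 were below 6 in both groups. Of the 33, 12 were called higher in MEF, 1 higher in NSC and 20 were not called (median -0.52). The 1 was Hoxa2, whose expression in the embryo reaches the hindbrain, and it read 6.47, 6.36 and 5.95 on the NSC arrays and 3.86, 3.59 and 3.86 on the MEF arrays (2.49 ± 0.14, SE, adjusted p = 2.61e-12). Hoxc8, a gene of the trunk, read 2.83, 3.08 and 3.36 on the NSC arrays and 8.65, 8.74 and 8.63 on the MEF arrays. Hoxc10 and Hoxd13, genes of the posterior trunk and distal limb, differed by -2.90 ± 0.17 (SE) and -2.73 ± 0.19 (SE). The 12 MEF-higher genes come from all 4 Hox clusters, and NSC arrays stood near background for Hoxc8.

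The Notch pathway, through which neighbouring progenitors hold each other undifferentiated, had 7 of 25 genes called higher in NSC, 1 higher in MEF and 17 not called, with a median of 0.14. The receptor gene Notch1 read 9.51, 9.70 and 9.77 on the NSC arrays and 7.24, 6.77 and 6.92 on the MEF arrays, clearly separate (2.68 ± 0.25, SE), while Notch2 was not called (-0.40 ± 0.32, SE). The ligand genes Dll1 and Dll3 differed by 1.75 ± 0.19 (SE) and 1.41 ± 0.19 (SE), and the ligand gene Jag1 was not called (-0.84 ± 0.22, SE). Hes6, an inhibitor of Hes1 that promotes differentiation, was higher in NSC by 2.64 ± 0.20 (SE). The non-canonical ligand gene Dlk1 was called higher in MEF (-3.94 ± 0.24, SE), but at -0.21 not without the probe sets of shared suffix.

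Genes of EGF and FGF signalling went both ways, with 12 of 34 called higher in NSC, 8 higher in MEF and 14 not called. The ligand genes Ereg (-6.18 ± 0.24, SE), Fgf7 (-4.79 ± 0.18, SE) and Hbegf (-2.66 ± 0.17, SE) were higher in MEF, and Fgf1 (3.43 ± 0.15, SE) and Tgfa (1.18 ± 0.22, SE) in NSC, Tgfa not with the mean of its probe sets (0.49). The receptor genes Egfr (0.56 ± 0.14, SE) and Fgfr1 (0.43 ± 0.20, SE) were not called, though Egfr differed by 1.66 (limma adjusted p = 3.03e-07) without the probe sets of shared suffix. Etv5, an ETS factor induced by FGF signalling, read 10.52, 10.74 and 10.81 on the NSC arrays and 6.64, 6.35 and 6.51 on the MEF arrays, an 18.2-fold difference, and its relative Etv4 differed by 1.501 ± 0.30 (SE). The feedback inhibitor genes Dusp6 (2.17 ± 0.14, SE), Spry1 (1.92 ± 0.21, SE), Spry2 (1.39 ± 0.39, SE) and Spry4 (2.17 ± 0.33, SE) were higher in NSC, and Spred3, also an inhibitor of the pathway, was not called (0.15 ± 0.17, SE). EGF and FGF are usual additions to neural stem cell medium, and the part of the medium in these differences was not tested. Fgfr2 was called higher in MEF (-1.13 ± 0.20, SE), but its difference was -0.03 without the probe sets of shared suffix.

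Hedgehog genes gave 3 of 14 higher in NSC (21.4%, against 8.13% of all genes), 2 higher in MEF (14.3%, against 8.84%) and 9 not called (median -0.05). The co-receptor genes Gas1 (2.45 ± 0.14, SE) and Cdon (2.30 ± 0.16, SE) were higher in NSC. The receptor and target gene Ptch1 was called (1.90 ± 0.20, SE) but lost the call with the mean of its probe sets (0.71). The target genes Gli1 (-0.10 ± 0.22, SE) and Hhip (-0.08 ± 0.14, SE) were not called and lay near background in both groups. Gli2, an activator of the pathway, was higher in MEF (-1.26 ± 0.20, SE), and Gli3 was not called (-0.58 ± 0.15, SE).

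Of 47 Wnt genes, 4 were called higher in NSC (8.51%, near the 8.13% of all genes), 13 higher in MEF (27.7%, against 8.84%) and 30 were not called (median -0.15). The receptor genes Fzd9 and Fzd3 differed by 4.72 ± 0.14 (SE) and 3.49 ± 0.26 (SE), and the target genes Lgr5, itself an R-spondin receptor, and Axin2, a feedback scaffold, by 3.26 ± 0.17 (SE) and 2.24 ± 0.31 (SE). Those 4 are all the Wnt genes higher in NSC. On the MEF side were the receptor gene Fzd6 (-2.38 ± 0.14, SE), which fell just short of 2-fold with the mean of its probe sets, the secreted inhibitor gene Dkk2 (-3.86 ± 0.22, SE), the agonist gene Rspo3 (-2.94 ± 0.17, SE) and the ligand gene Wnt5a (-2.03 ± 0.28, SE).

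Of 39 BMP and TGF-beta genes, 16 were called higher in MEF, 2 higher in NSC and 21 were not called (median -0.82). The ligand genes Inhba (-6.42 ± 0.17, SE), Tgfb3 (-4.98 ± 0.14, SE) and Bmp4 (-4.30 ± 0.30, SE) and the antagonist genes Fst (-6.78 ± 0.16, SE) and Grem1 (-3.97 ± 0.21, SE) were all higher in MEF. Id1, an inhibitor of helix-loop-helix factors and a direct BMP target, read 6.59, 6.57 and 6.58 on the NSC arrays and 10.60, 10.63 and 10.61 on the MEF arrays, a 16.4-fold difference with nearly no spread within either group. Id4 read 5.15, 5.16 and 4.74 on the NSC arrays and 10.31, 10.18 and 10.31 on the MEF arrays, a 38.0-fold difference, and Id3 differed by -2.18 ± 0.30 (SE), whereas Id2 was not called, at 10.64 in NSC and 10.38 in MEF. The inhibitory mediator genes Smad6 and Smad7, also targets of the pathway, differed by -4.59 ± 0.18 (SE) and -2.29 ± 0.21 (SE). The receptor gene Bmpr1a was not called (0.93 ± 0.14, SE) except with arrays centred on their medians (1.03), and the 2 genes called higher in NSC, the receptor genes Bmpr2 (1.06 ± 0.13, SE) and Acvr2a (1.17 ± 0.14, SE), lost the call with the mean of their probe sets.

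Among PDGF, IGF, HGF and other growth factor genes 16 of 28 were called higher in MEF, 6 higher in NSC and 6 were not called (median -1.61). Igf2, the fetal growth factor, read 5.52, 6.92 and 6.62 on the NSC arrays and 12.29, 12.33 and 12.21 on the MEF arrays, a 60.7-fold difference (adjusted p = 1.25e-13) although NSC replicate 1 was lower than the other NSC arrays. Its binding proteins divided, with Igfbp2 (4.64 ± 0.28, SE), Igfbp3 (3.77 ± 0.20, SE) and Igfbp4 (1.78 ± 0.20, SE) higher in NSC and Igfbp7 (-5.67 ± 0.11, SE) in MEF. The receptor genes Met (-5.15 ± 0.24, SE) and Pdgfrb (-2.72 ± 0.18, SE) were higher in MEF and Kit (3.29 ± 0.30, SE) in NSC. Retinoic acid genes had 7 of 16 higher in MEF and none in NSC (median -0.65). Crabp1, a cytoplasmic carrier of retinoic acid, read 4.32, 4.81 and 4.25 on the NSC arrays and 11.45, 11.45 and 11.29 on the MEF arrays, with no overlap, and Crabp2 differed by -4.56 ± 0.17 (SE). The receptor gene Rarg differed by -1.87 ± 0.28 (SE) and the partner receptor gene Rxra was not called (-0.10 ± 0.15, SE).

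**Figure D3:**
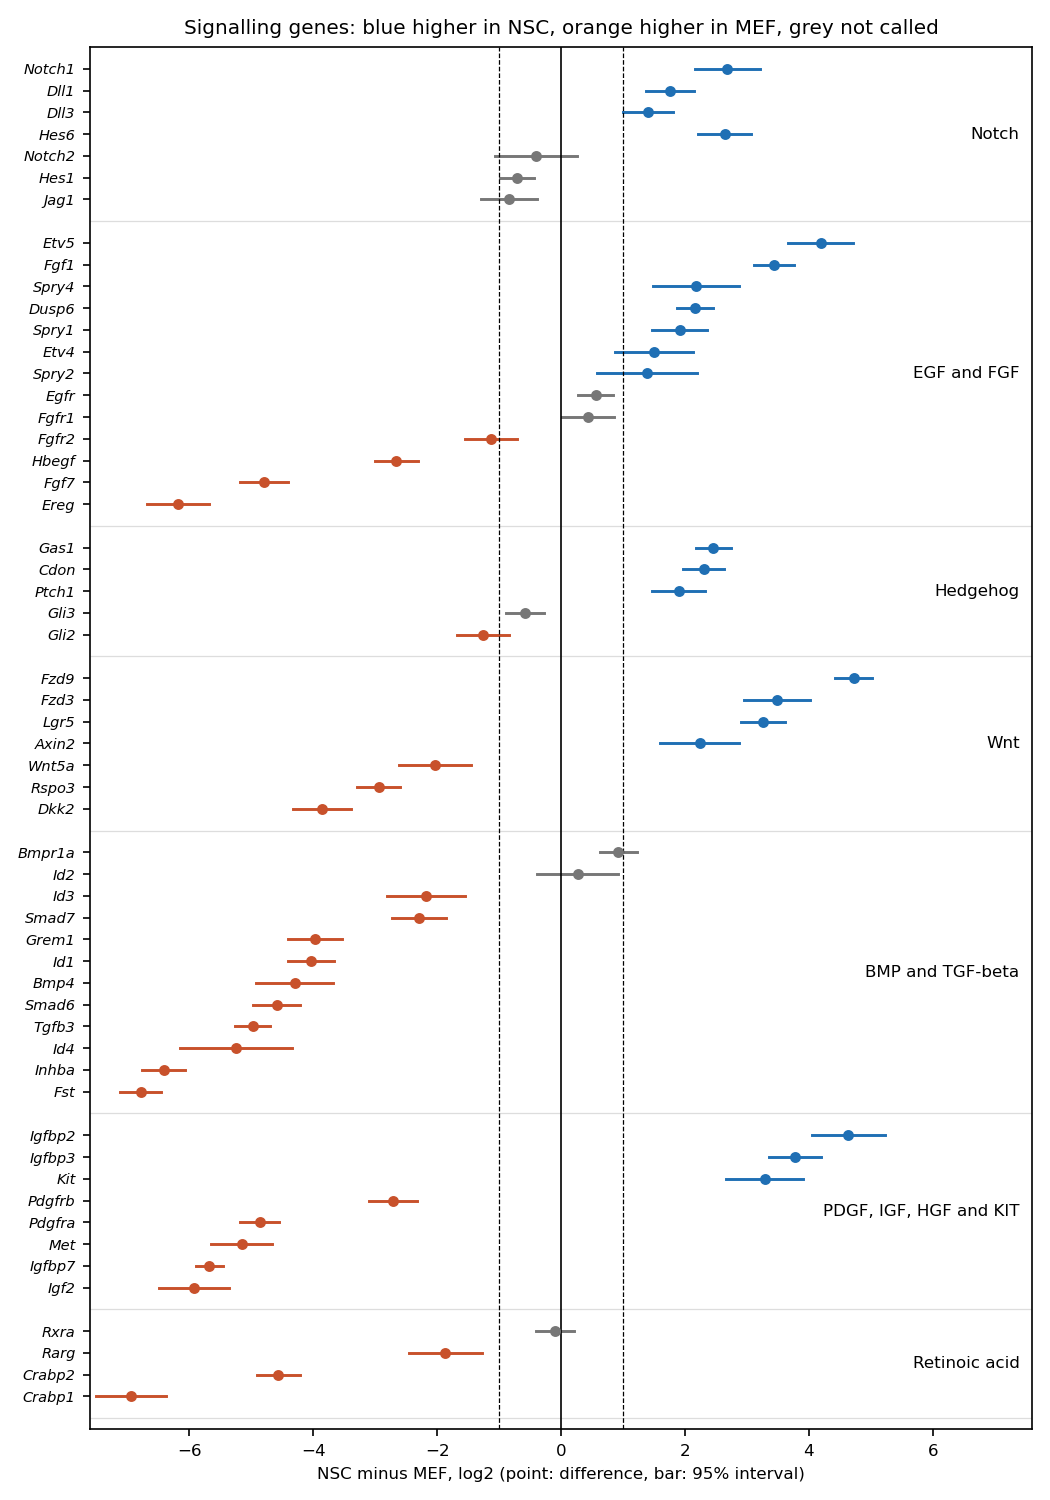
Difference NSC minus MEF (x axis, log2) for genes of 7 signalling groups, with the 95% interval from limma as a bar. Etv5 and Dusp6 of the FGF pathway lie right of 1 (blue, called higher in NSC), Id1, Id3, Id4, Smad6 and Smad7 lie left of -1 (orange, called higher in MEF), and Egfr, Fgfr1, Bmpr1a and Id2 (grey) were not called.

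Adhesion genes told the groups apart in part. Cdh2, N-cadherin, which both neural and mesenchymal cells use, averaged 10.37 ± 0.16 (SD, n = 3) in NSC and 10.35 ± 0.12 (SD, n = 3) in MEF, a difference of 0.02 ± 0.18 (SE) with a 95% interval of -0.35 to 0.40. Cdh11, the cadherin of mesenchyme, read 6.42, 6.29 and 5.83 on the NSC arrays and 11.67, 11.75 and 11.80 on the MEF arrays, and was the 1 member of 21 cadherins called higher in MEF. Of the other members, 7 were called higher in NSC, Cdh4 (4.97 ± 0.20, SE) and Cdh10 (2.88 ± 0.23, SE) of the nervous system among them, and 13 were not called. The 11 protocadherins gave 1 higher in each group (9.09% each, near the shares of all genes) and 9 not called. Of 25 integrins, 4 were called higher in NSC, 2 higher in MEF and 19 were not called. Their share higher in MEF was near the 8.84% of all genes, and their share higher in NSC was above the 8.13%. Itgb8 (4.00 ± 0.18, SE), which releases active TGF-beta in the brain, and Itga4 (3.81 ± 0.16, SE) were higher in NSC, and the fibronectin receptor gene Itga5 (-2.49 ± 0.29, SE) and Itgb5 (-2.24 ± 0.17, SE) in MEF. The laminin genes, which build basement membranes, gave 3 of 10 higher in MEF and none in NSC.

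Guidance genes went both ways. Of 31 semaphorin, plexin and neuropilin genes, 6 (19.4%) were higher in NSC and 5 (16.1%) higher in MEF. Of 21 ephrin and Eph genes, 2 (9.52%, near the 8.13% of all genes) were higher in NSC and 7 (33.3%, against 8.84%) in MEF. Sema6d (4.04 ± 0.19, SE), a membrane-bound guidance cue, was higher in NSC, and the secreted cue gene Sema3c (-5.56 ± 0.23, SE) and the receptor gene Nrp1 (-2.16 ± 0.21, SE) in MEF. Ephb1 (2.87 ± 0.12, SE) was higher in NSC and the ligand gene Efnb2 (-2.28 ± 0.16, SE) in MEF. Chl1, a cell adhesion molecule of the L1 family, averaged 10.31 ± 0.13 (SD, n = 3) in NSC and 3.09 ± 0.08 (SD, n = 3) in MEF. Other large differences toward NSC were those of Tox3 (6.72 ± 0.21, SE), a nuclear protein of neurons, Nptx1 (6.61 ± 0.19, SE), a neuronal pentraxin, and the metabotropic glutamate receptor genes Grm5 (6.53 ± 0.12, SE) and Grm3 (6.05 ± 0.21, SE).

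Of 57 intermediate filament genes, 4 were called higher in NSC (7.02%) and 6 higher in MEF (10.5%), close to the shares of all genes (8.13% and 8.84%). The other 47 were not called, and 42 of the 57 were below 6 in both groups. Vim, the vimentin of both mesenchymal cells and neural progenitors, read 13.36, 13.39 and 13.29 on the NSC arrays and 13.86, 13.88 and 13.86 on the MEF arrays. MEF was higher on every array, by a difference of -0.52 ± 0.10 (SE) with a 95% interval of -0.73 to -0.31, which excludes 2-fold. Keratin genes of simple epithelia were higher in MEF, Krt18 by -4.27 ± 0.29 (SE), Krt19 by -3.80 ± 0.20 (SE) and Krt8 by -2.41 ± 0.29 (SE).

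Calcium-binding annexins and S100 proteins were higher in MEF or not called, with 13 of 24 against 11, and none higher in NSC (median -1.28). S100a6, a small calcium-binding protein of many mesenchymal cells, was near background in NSC. It read 4.67, 4.58 and 3.63 on the NSC arrays and 13.65, 13.68 and 13.69 on the MEF arrays, a 665-fold difference (-9.38 ± 0.22, SE, adjusted p = 5.05e-18). Anxa3, a phospholipid-binding annexin, read 3.96, 3.96 and 3.87 on the NSC arrays and 12.75, 12.84 and 12.73 on the MEF arrays, and S100a4, also known as fibroblast-specific protein, differed by -7.05 ± 0.33 (SE). Lgals3, a galactoside-binding lectin, differed by -8.07 ± 0.17 (SE), but ESC stood at 12.503, so that NSC was the low group. Anxa2 was called (-6.39 ± 0.19, SE) but differed by -0.07 without the probe sets of shared suffix.

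Secreted signals of inflammation were higher in MEF, with 11 of 17 cytokine and inflammatory genes called, none higher in NSC and 6 not called (median -2.88). Ptgs2, the inducible enzyme of prostaglandin synthesis, read 3.44, 3.10 and 3.39 on the NSC arrays and 11.65, 11.92 and 12.03 on the MEF arrays, a 377-fold difference. The chemokine gene Cxcl12 (-6.48 ± 0.21, SE), which attracts blood cell precursors, Il6 (-4.96 ± 0.17, SE) and the pentraxin gene Ptx3 (-5.79 ± 0.17, SE) were among the members called. Macrophage markers were also called higher in MEF in 9 of 16 cases, and their part was not tested. Mif was not called (-0.12 ± 0.12, SE), and Cxcl1, not called at -0.60 ± 0.18 (SE), differed by -4.003 in another of its probe sets. Of 19 interferon-response and MHC genes, 8 were higher in MEF and 1 higher in NSC (median -0.79), H2-K1, whose call was lost with the mean of its probe sets. Among the 8 were the antiviral membrane protein gene Ifitm3 (-3.64 ± 0.15, SE) and the MHC light chain gene B2m (-1.50 ± 0.21, SE).

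Sterol and fatty acid genes favoured the neural cells, with 14 of 23 (60.9%) called higher in NSC, 2 higher in MEF and 7 not called (median 1.28). The sterol synthesis genes Hmgcs1 (2.25 ± 0.16, SE) and Dhcr7 (3.00 ± 0.26, SE), the elongase gene Elovl2 (4.23 ± 0.19, SE), which acts on polyunsaturated fatty acids, and the regulator gene Srebf1 (2.02 ± 0.25, SE) were called. Fasn, fatty acid synthase, and the lipid-binding protein gene Fabp5 were not called (0.73 ± 0.14 and 0.77 ± 0.14, SE). The muscle-type lipid-binding protein gene Fabp3 was higher in MEF (-2.99 ± 0.20, SE). Of 20 glycolysis and creatine kinase genes, 4 were higher in NSC (20.0%, against 8.13% of all genes) and 5 higher in MEF (25.0%, against 8.84%). The glucose transporter gene Slc2a1 (-2.17 ± 0.15, SE) and the phosphofructokinase gene Pfkp (-3.31 ± 0.13, SE) were higher in MEF, the lactate dehydrogenase gene Ldhb (1.72 ± 0.34, SE) was higher in NSC and Pkm was not called (-0.18 ± 0.15, SE). Ckb, the brain creatine kinase, read 13.41, 13.49 and 13.27 on the NSC arrays and 8.76, 8.72 and 8.71 on the MEF arrays.

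Of 30 RNA-binding and splicing regulators of neural fate, 4 were called higher in NSC, 6 higher in MEF and 20 were not called (33.3% called, against 17.0% of all genes). Ptbp1, the splicing repressor that progenitors and non-neural cells express, was not called (-0.20 ± 0.16, SE, 95% interval -0.53 to 0.14), while its neural relative Ptbp2 was higher in NSC by 1.85 ± 0.20 (SE). Rest, a repressor of neuronal genes, was not called (-0.52 ± 0.18, SE). Nova1, a neuronal splicing factor, differed by 4.18 ± 0.23 (SE), and Hmga2, a chromatin protein of fetal cells, by -2.60 ± 0.20 (SE). Among 24 subunits of the BAF chromatin remodeller 4 were higher in NSC (16.7%, against 8.13% of all genes) and 1 higher in MEF, Smarcd2 (-1.81 ± 0.15, SE), with a median of 0.41. Of those 4, Smarca2, Dpf1 and Smarcd1 lost the call with the mean of their probe sets (0.83, 0.80 and 0.45).

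Of 25 cell division genes, 4 were called higher in NSC, none in MEF and 21 were not called (median 0.39). The share called was near the 17.0% of all genes. The share higher in NSC was above the 8.13% of all genes, and the share higher in MEF was below the 8.84%. Mki67, a marker of dividing cells, differed by 1.26 ± 0.15 (SE), the replication helicase gene Mcm7 by 1.28 ± 0.12 (SE) and Rrm2, of nucleotide synthesis, by 0.01 ± 0.16 (SE). Among cyclin D, CDK inhibitor and p53 target genes 4 of 20 were higher in NSC and 8 higher in MEF. The inhibitor gene Cdkn2c (1.97 ± 0.19, SE) was higher in NSC. The inhibitor gene Cdkn2b (-2.91 ± 0.16, SE), the kinase gene Cdk6 (-3.16 ± 0.21, SE) and the p53 target Perp (-3.82 ± 0.20, SE) were higher in MEF, and the p53 target Cdkn1a was not called (-0.53 ± 0.16, SE).

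Imprinted genes, which are transcribed from 1 parental copy, differed in sets. Of 17 maternally expressed genes, 7 were called higher in MEF (41.2%, against 8.84% of all genes) and 1 higher in NSC (5.88%, against 8.13%). Of 19 paternally expressed genes 4 were higher in MEF (21.1%) and 7 higher in NSC (36.8%). The maternally expressed RNA Meg3 read 5.97, 5.67 and 5.28 on the NSC arrays and 11.11, 10.84 and 10.87 on the MEF arrays. Rian, its neighbour in 1 imprinted region, read 4.44, 4.05 and 3.91 on the NSC arrays and 9.92, 9.99 and 9.45 on the MEF arrays, and neither RNA overlapped between the groups. Grb10, an inhibitor of insulin and IGF signalling imprinted in opposite ways in brain and other tissues, read 4.29, 4.26 and 4.32 on the NSC arrays and 11.99, 12.16 and 12.09 on the MEF arrays, a 221-fold difference. Mest, paternally expressed, went the other way and read 12.96, 12.83 and 12.93 on the NSC arrays and 8.43, 8.29 and 8.22 on the MEF arrays (4.59 ± 0.12, SE, adjusted p = 2.23e-17). Nnat differed by 3.55 ± 0.41 (SE) and Peg3 was not called (-0.38 ± 0.15, SE). Of the 4 sex chromosome genes, Xist (-2.91 ± 0.25, SE) and the Y-linked Kdm5d (-2.997 ± 0.21, SE) were higher in MEF, while Eif2s3y, also Y-linked, was not called (0.22 ± 0.56, SE). MEF arrays thus carried both Xist and Y-linked transcripts, and whether the embryos were pooled is not given in the sources used here.

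Markers of other cell types were examined because either culture could hold them. Of 16 macrophage markers 9 were called higher in MEF and none in NSC (6 in MEF with arrays centred on their medians), and their summed linear level was 997 to 1159 on the MEF arrays and 334 to 358 on the NSC arrays. Lyz2, lysozyme of macrophages, read 5.28, 4.27 and 5.38 on the NSC arrays and 8.43, 8.35 and 8.21 on the MEF arrays, and Csf1r, the receptor of macrophage growth, averaged 5.79 in NSC and 7.55 in MEF, a call lost with the mean of its probe sets (-0.91), while 12 of the 16 were below 6 in both groups. Skeletal muscle genes gave 2 of 12 higher in MEF (16.7%, against 8.84% of all genes), with sums of 2615 to 2877 in MEF and 242 to 252 in NSC. Most of that sum was Acta1, skeletal actin, at 11.24 in MEF, whereas the defining factor gene Myod1 stood at 4.71 in NSC and 4.80 in MEF. Epithelial genes gave 3 of 12 higher in MEF, the 3 keratins named above (sums 837 to 874 against 232 to 267). Endothelial genes gave 1 of 11, Flt1 (9.09%, near the 8.84% of all genes, with sums of 382 to 404 against 291 to 296). Cartilage and bone genes gave 1 of 8, the type II collagen gene Col2a1 (-3.19 ± 0.17, SE), and adipocyte genes 1 of 5, the fat cell regulator Pparg (-2.91 ± 0.14, SE), both higher in MEF. Erythroid genes gave none of 6, and of 6 Schwann cell and neural crest genes 1 was higher in NSC, Tfap2a (2.05 ± 0.16, SE). Of 13 pluripotency genes 1 was called, Klf2, higher in MEF at -1.82 ± 0.25 (SE), a share of 7.69% against 8.84% of all genes. In both groups 8 of the 13 were called lower than in each of the other 4 (1.8% of all genes), with Pou5f1 at 3.61 in NSC, 3.12 in MEF and 12.35 in ESC. The part of other cell types in the differences was not tested.

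**Figure D4:**
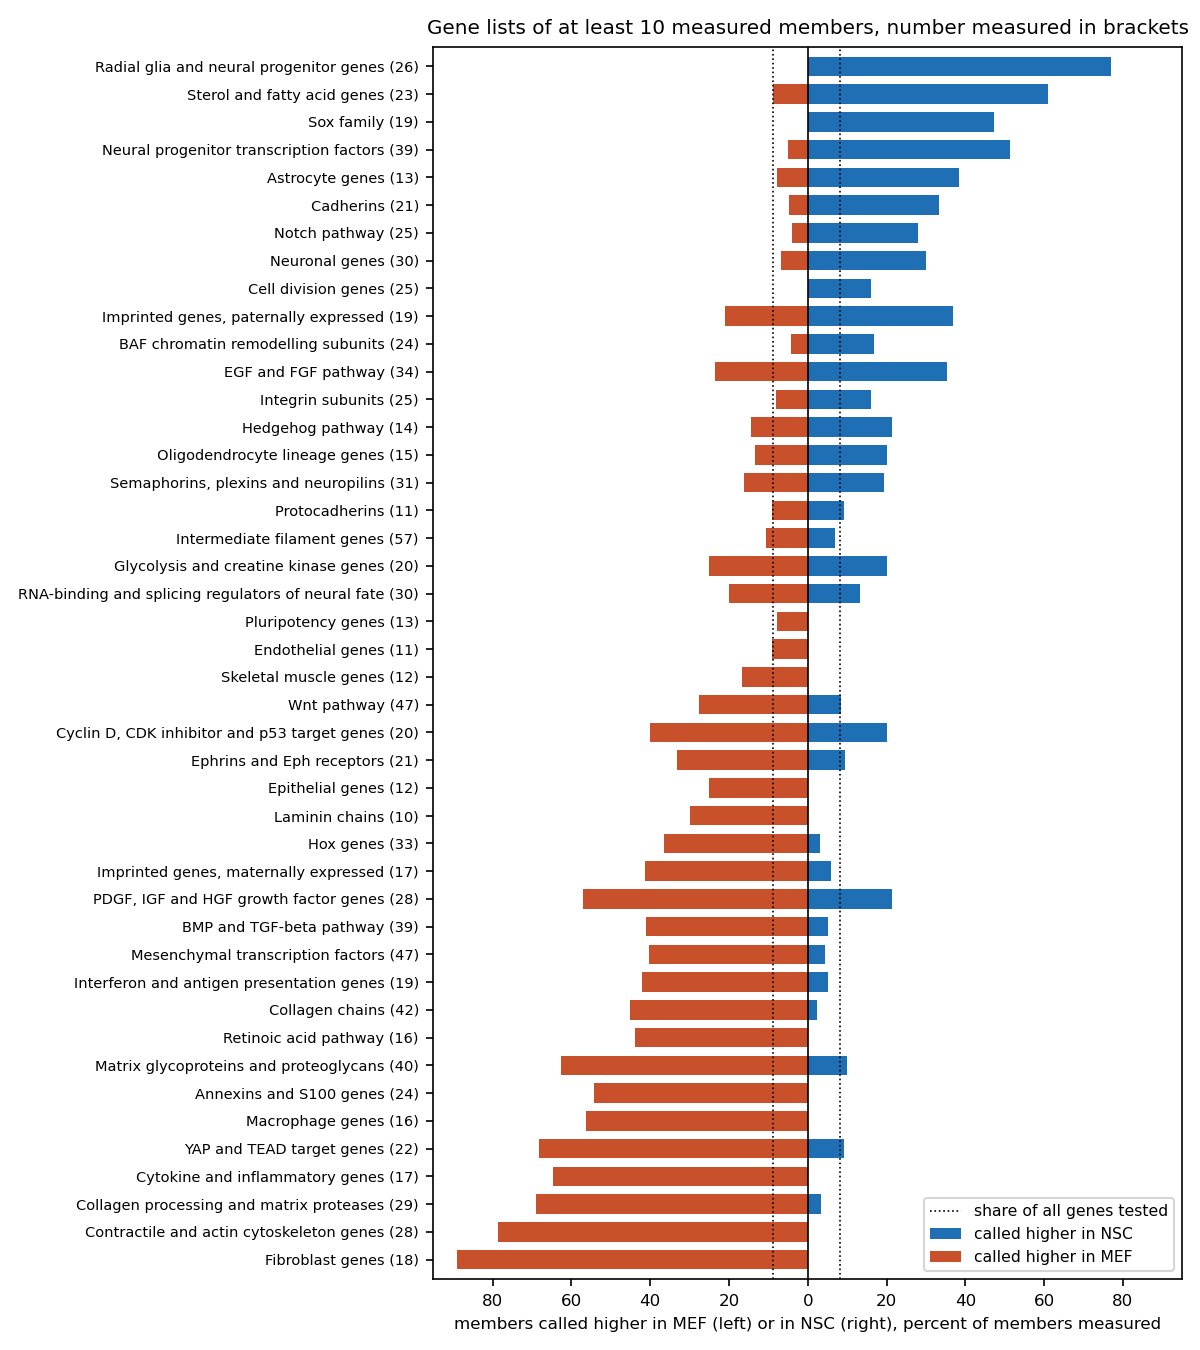
Percent of measured members called higher in MEF (orange, left) and in NSC (blue, right) for lists of at least 10 measured genes, with dotted lines at the shares over all genes, 8.84% and 8.13%. Radial glia genes (76.9%), sterol genes (60.9%) and neural transcription factors (51.3%) extend farthest to the right, and fibroblast markers, contractile genes and collagen-processing genes farthest to the left.

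Setting the pair against the other 4 groups showed which differences belong to 1 of the 2 cell types. A gene was counted when it was called higher in NSC, or in MEF, than in each of the other 5 groups, and 619 genes (3.4%) met this for NSC and 711 (3.91%) for MEF. Of the 26 radial glia genes 15 were among the former and none among the latter, and of the 18 fibroblast markers none and 14. The contractile list had 19 of 28 among the MEF genes, the cytokine list 11 of 17, and the sterol list 9 of 23 among the NSC genes. Some lists share members, so their counts are not separate. Fabp7 is in both the radial glia and the sterol list, and Col1a1 in both the fibroblast and the collagen list. In NSC the genes farthest above every other group were led by Olig1, Olig2 and Fabp7, and included Nap1l5 (11.35 in NSC, 5.48 in MEF), a paternally expressed relative of nucleosome assembly proteins, and Astn1 (9.30 and 3.37), which guides neurons along glial fibres. The genes that stood farthest above every other group in MEF included C1qtnf3 (2.64 in NSC, 8.41 in MEF), a secreted complement-like protein, the sphingosine phosphate receptor gene S1pr3 (3.70 and 11.41), the protease gene Tll1 (2.95 and 9.07) and the chemokine gene Cxcl5 (2.88 and 8.40). Cavin2, of the membrane pits called caveolae, had 12.10 in MEF and 7.47 in ESC_like, a group kept on fibroblasts, and the part of feeder cells in the levels of the other groups was not tested.

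The level in ESC was set beside both levels, which describes closeness and not the side on which a difference arose. The ESC were kept on fibroblast feeder cells, whose part in these counts was not tested. Of the 1479 genes higher in NSC, ESC lay within 1 log2 unit of the MEF level only for 652 (44.1%) and of the NSC level only for 311 (21.0%). For 209 of them ESC lay within 1 unit of both levels and for 307 of neither. Of the 1609 higher in MEF, ESC lay within 1 unit of the NSC level only for 776 (48.2%) and of the MEF level only for 239 (14.9%). For 172 of these ESC lay within 1 unit of both levels and for 422 of neither. Sox2 is an example of a gene with ESC near the NSC level only, with ESC at 12.12 and MEF low. Stmn2 in ESC, at 11.15, lay above both its MEF and its NSC level by more than 1 unit and so near neither. The low side was below 5, near background, for 446 of the NSC-higher genes (30.2%) and for 608 of the MEF-higher genes (37.8%).

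NSC and MEF also shared a profile against the other groups. In both, 321 genes (1.76%) were called higher than in each of the other 4 groups and 328 (1.8%) lower. Examples, chosen after their values were seen, were the receptor phosphatase gene Ptprz1, described above, the growth factor gene Ptn (12.62 in NSC and 9.92 in MEF), the protease gene Adam12 (11.03 and 9.82) and the zinc finger gene Ikzf2 (8.27 and 8.31). On the low side were Pou5f1, Lin28a (3.12 and 3.18, against 10.33 in ESC), an RNA-binding protein of pluripotent and germ cells, the zinc finger gene Sall4 (4.37 and 4.13) and the epithelial adhesion gene Epcam (4.35 and 4.19). Genes of high level in both groups were picked for a difference under 0.25, so their closeness follows from the choice. Eef1a1, a translation elongation factor (0.03 ± 0.09, SE), and the ribosomal protein gene Rps2 (0.03 ± 0.08, SE) are examples.

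**Figure D5:**
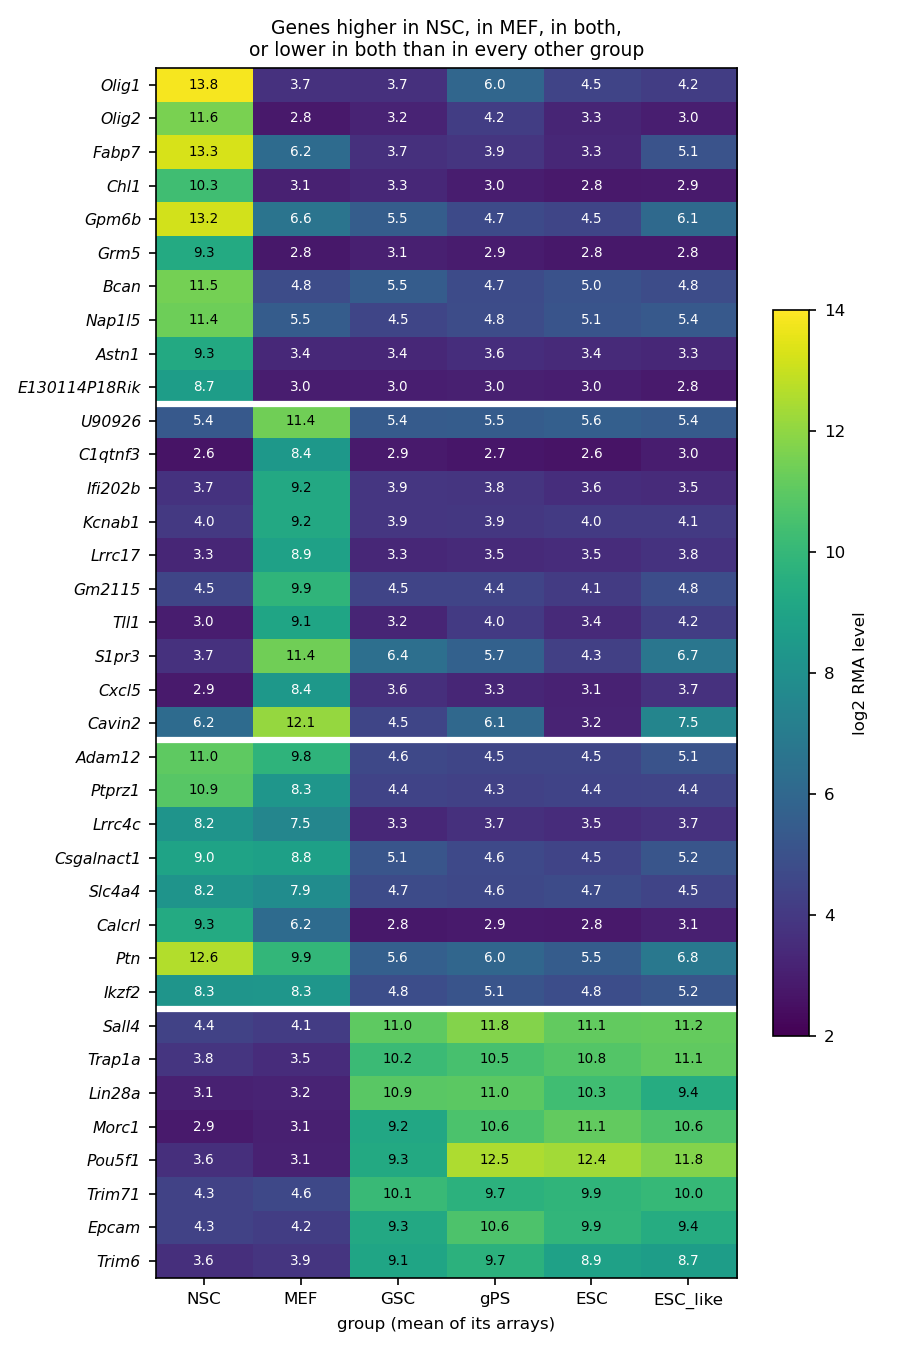
Mean log2 RMA level in the 6 groups (columns) of 36 genes (lines), in blocks of 10 genes farthest above every other group in NSC, 10 in MEF, 8 higher in both and 8 lower in both. Pou5f1 and Lin28a are below 4 in NSC and MEF and above 10 in ESC, and S1pr3 is at 11.41 in MEF.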

How the data were processed

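Total RNA was labelled with biotin by the One-Cycle method and hybridised to Affymetrix arrays, according to the labels' protocols. The authors deposited RMA values on the log2 scale for each probe set (RMA is named in the submitters' processing notes), and these were used with no further scaling. The sources used here do not state if the 20 arrays went through RMA as 1 set. Of 45101 probe sets, 34945 carried 1 gene symbol, 932 several and 9160 none, and 64 were controls. Symbols were updated for 34741 of them. The result was 18193 genes, of which 9010 had more than 1 probe set.

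A mean for each of the 6 groups was fitted over the 20 arrays in limma 3.58.1 (lmFit, contrasts.fit and eBayes, R 4.3.3), with 14 residual degrees of freedom and no covariate. P-values were adjusted by Benjamini-Hochberg over all genes. On simulated data with 18193 genes the NSC minus MEF fit called 40% of 50 genes changed by 1 log2 unit, 98% of 50 at 1.5 and 100% at 2 and at 3, with 0 false calls. The noise was normal and independent between arrays, and unchanged genes had equal NSC and MEF means. A change of 1 log2 unit lies at the 2-fold limit, so many estimates of it fall short. Shifts shared by the arrays of a group were not simulated, so the 0 false calls do not cover them.

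The comparison and the 49 gene lists were chosen with earlier results of these data known. Genes named were fixed anchors, up to 5 called members per list and direction with the largest differences, up to 3 members per list not called with the highest mean, all members of lists of up to 12 genes, the 15 largest differences in each direction, the 10 most selective for each cell type and 8 shared at high level. Genes named outside that rule were chosen after their values were seen: Amotl2, Aqp4, Bmp4, Ccl2, Cnn2, Crim1, Csf1, Cspg5, Dcn, Dcx, Dll3, En2, Etv4, Fap, Fgfr2, Gfap, Gli1, Grem1, Hhip, Id1, Id3, Lhx2, Lum, Msi1, Msi2, Ncan, Nfia, Nfib, Nkx2-2, Postn, Pou3f4, Prom1, Ptpn14, Smad6, Smad7, Sox9, Spred3, Spry2, Tgfa, Vcl, Wnt5a and Zic1. Alternatives covered normalization, array weights, a robust fit with a variance trend, the choice of probe set, dim genes, thresholds, the arrays fitted, a replicate block and leaving out each of 20 arrays. Promoters were RefSeq windows of build GRCm38.p6, found for 14452 genes, 11791 of them with exactly 1. Figures were drawn in matplotlib 3.10.9, and tables made in Python 3.11.15 with pandas 2.3.3 and numpy 2.4.6.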

Additional observations from a re-analysis of the deposited data

How the results depend on the processing

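With other normalization, weighting, variance, probe set or array choices, between 2608 (mean of probe sets) and 3165 (centring) genes were called, against 3088, and 2726 with the probe sets of shared suffix left out. The larger side turned with centring, to 1707 higher in NSC and 1458 in MEF, where the median gene differed by 0.11 in place of 0.01. At 1.5-fold, 5255 genes were called, 2730 higher in NSC and 2525 in MEF, and at 4-fold 1200, 452 and 748. At 1.5-fold and 4-fold, 998 and 218 genes were higher in NSC than in every other group, 1138 and 264 higher in MEF, 751 and 79 lower in both, and 650 and 52 higher in both. Leaving out each array in turn gave 3059 to 3105 genes, 1439 to 1507 higher in NSC and 1576 to 1620 in MEF, and 603 to 628, 698 to 717, 316 to 336 and 308 to 327 for the 4 counts against every other group. With ESC_like left out those 4 counts could not be formed.

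Same-numbered NSC and MEF arrays deviated together at r of 0.0461, 0.0205 and 0.0126, so the numbers were not taken to pair samples, and the replicate block gave 3088 calls, 1479 and 1609. Of 98 list counts (49 lists in 2 directions), all kept their value with the block, with only the 6 arrays, with ESC_like left out and with a variance trend and robust fit. The other settings changed some: 92 of 98 kept their value with array weights, 85 with quantile normalization, 78 with dim genes left out, 73 with centring, 64 with the mean of probe sets and 53 without the probe sets of shared suffix. With dim genes or shared-suffix probe sets left out, members no longer measured also lower a count. In no list did the larger side turn. Of 527 named genes 319 were called, and 281 of these kept the call in every setting that measured them, the thresholds aside. A gene left out of a setting with its probe sets was not judged there. The direction reversed for Calcrl (-0.06) and Plagl1 (0.0896) without the probe sets of shared suffix and for Hspg2 (-1.01) with the mean of probe sets, and the cause was not tested. With 3 arrays a group, the number of arrays and the signal over background limit precision.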
